A study of Mus musculus with 6 samples.

Results

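Casein kinase 1 delta (Csnk1d), casein kinase 1 epsilon (Csnk1e) and glycogen synthase kinase 3 beta (Gsk3b) are protein kinases, and Btrc and Fbxl21 are F-box subunits of ubiquitin ligases, that act on clock proteins. On these arrays the 5 genes, of 20659 with a symbol, were read by 11 probes, of 39429 in all, chosen because the probe's name in the files is a RefSeq transcript of the gene. Csnk1d, Csnk1e, Btrc and Fbxl21 had 2 probes each and Gsk3b had 3. All 11 passed the filter on dim probes, with 28795 probes passing in all. Levels are given in log2 units relative to the 75th percentile of signals on the same array, so a value of 1 is a signal 2-fold above that percentile.

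Islets came from male C57BL6 mice aged 8 weeks, on rodent chow and in cycles of 12 h of light and 12 h of dark. There were 6 groups, and by their labels they differed only in the time of collection: ZT0 (zeitgeber time 0, lights on), ZT4, ZT8, ZT12 (lights off), ZT16 and ZT20. Each was 1 array of total RNA pooled from 3 to 5 mice, so no time point had a replicate and no difference between 2 time points could be tested. The labels name no genetic alteration, no drug and no control other than the other times.

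The circadian clock is a loop in which the activators CLOCK and BMAL1 (gene Arntl) induce Per and Cry genes, whose proteins then repress CLOCK and BMAL1. How long the repressors last sets the pace of the loop. The casein kinases phosphorylate PER proteins, Btrc (beta-TrCP) binds the phosphorylated form and directs it to the proteasome, Fbxl21 ubiquitinates CRY proteins, and Gsk3b phosphorylates several clock proteins, among them PER2 and the repressor REV-ERB alpha. In islets the clock is known for its influence on insulin secretion. These arrays measured mRNA, not the activity of a kinase or a ligase.

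All 8 endocrine markers (Ins1, Ins2, Gcg, Sst, Ppy, Iapp, Chga and Pcsk2) were well above background on all 6 arrays. The share of spots well above background ran from 66.1% at ZT4 to 84.4% at ZT0, and the 75th percentile of the signal from 506 at ZT4 to 2090 at ZT8. The ZT8, ZT12, ZT16 and ZT20 arrays were read in 1 scan, and ZT0 and ZT4 in scans of their own. At ZT0 and ZT4 time and scan therefore cannot be told apart. The ZT0 array had 1743 spots flagged as outliers, and the others had 166 to 247. Pools differed in marker transcripts of cells other than islet cells. The summed signal of 3 hepatocyte markers was 112 times the array's 75th percentile at ZT20 and at most 0.379 elsewhere, and that of 4 intestinal markers was 264 at ZT4 and at most 16.8 elsewhere. Of the intestinal markers Fabp2, Spink4 and Lgals4 were highest at ZT4. Vil1 was not, with a level of 3.24 at ZT4 and 3.83 at ZT16. In such bulk samples fewer cells of a type and less RNA per cell cannot be told apart.

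The study followed islet transcripts around the day, and the first question for the kinase and ligase genes was whether their probes followed a 24 h cosine. None of the 11 did so beyond the scatter of the arrays about the fit. The moderated F test of limma called 0 of 11 probes after Benjamini-Hochberg adjustment over all probes tested (smallest adjusted p 0.766), and 0 of 28795 probes were called in all (0%). At an unadjusted limma p under 0.05 the count was 0 of 11, against 1138 of 28795 (3.95%). An ordinary F test and an exact permutation test over the orders of the arrays also called 0 of the 11 and had 0 of them at an unadjusted p under 0.05. The median fitted amplitude, the peak minus the trough of the cosine, was 1.15 log2 units over the 11 probes and 1.33 over all probes tested. The fit had 3 residual degrees of freedom, and p-values measure only the scatter of these 6 pools.

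**Figure D1:**
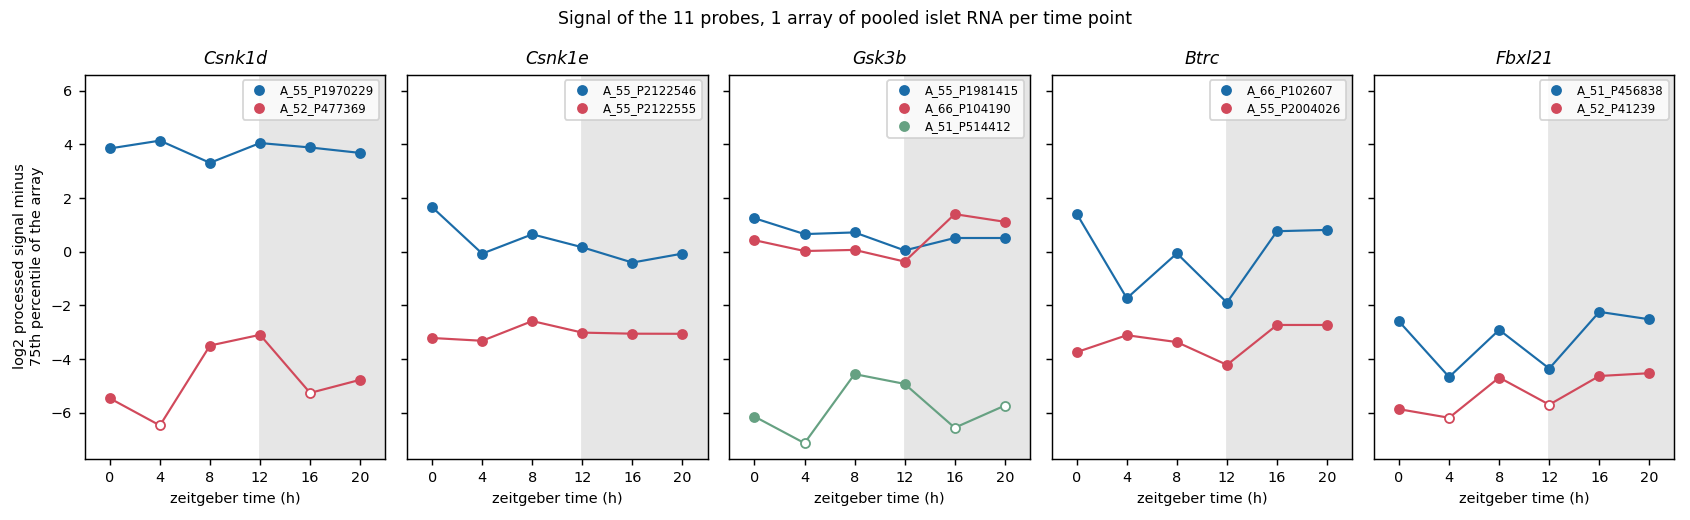
Level of each probe (vertical axis, log2 units relative to the 75th percentile of signals on the array) against zeitgeber time in h (horizontal axis), 1 panel per gene and 1 line per probe; each point is 1 array, open points were not well above background, and shading marks the dark phase. The brighter Csnk1d probe stayed between 3.31 and 4.14, whereas the dimmer one was highest at ZT8 and ZT12, and the Btrc probe A_66_P102607 and the Fbxl21 probe A_51_P456838 were low at ZT4 and ZT12.

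Csnk1d was read by probe A_55_P1970229, named after transcript NM_027874, and probe A_52_P477369, named after transcript NM_139059. Probe A_55_P1970229 had levels of 3.85 (ZT0), 4.14 (ZT4), 3.31 (ZT8), 4.05 (ZT12), 3.88 (ZT16) and 3.68 (ZT20). It was nearly level: its highest array was 1.77-fold above its lowest. Its fitted amplitude was 0.10 ± 0.72 (SE) log2 units, with an unadjusted limma p of 0.991, and without 1 array it was at most 0.52 (without ZT8). Which of its arrays was highest depended on the scaling, ZT4 here and ZT16 in 3 of the other 6 settings, and its range ran from 0.42 to 1.23 log2 units over the 7.

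Probe A_52_P477369 had levels of -5.46 (ZT0), -6.47 (ZT4), -3.49 (ZT8), -3.09 (ZT12), -5.26 (ZT16) and -4.77 (ZT20). It was high at ZT8 and ZT12 and low on the other 4 arrays, and at ZT4 and ZT16 it was not well above background. Its processed signal was 186 ± 20 (Feature Extraction's own error of the spot) at ZT8 and 194 ± 21 at ZT12, where the dimmest spots well above background had 34.2 and 33.2. At ZT12 it was 5.15-fold above ZT0 and 3.19-fold above ZT20, at least 4.24-fold above ZT16 and at least 3.68-fold above ZT4. The bounds set a spot below background to the lowest signal well above background on its array. Its cosine had an amplitude of 2.41 ± 1.07 (SE) with the peak at ZT11.9 and an unadjusted limma p of 0.146, adjusted 0.766. ZT12 was its highest array under all 7 scalings and background settings compared, but with normexp correction the range from ZT0 to ZT12 was 3.16-fold.

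The Csnk1d probes differed in shape. Taking the difference between them on the same array removes any constant factor of the whole array, but not the effect of quantile normalization. A_55_P1970229 minus A_52_P477369 was 9.31 log2 units (ZT0), 10.6 (ZT4), 6.80 (ZT8), 7.14 (ZT12), 9.14 (ZT16) and 8.45 (ZT20). It ranged over 3.80 log2 units, 14.0-fold, or 2.50 with dim spots at their bound. Without the ZT4 array the range was 2.50, within the shared scan it was 2.34, and with normexp background correction in place of the processed signal it was 1.93. With quantile normalization the range was 2.85, and with the authors' values it was 2.86. In the values printed here the difference was smallest at ZT8 and next smallest at ZT12.

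Csnk1e was read by probes A_55_P2122546 and A_55_P2122555, both named after NM_013767. Probe A_55_P2122546 had levels of 1.66 (ZT0), -0.07 (ZT4), 0.65 (ZT8), 0.17 (ZT12), -0.40 (ZT16) and -0.07 (ZT20). ZT0 stood highest, 4.18-fold above ZT16, and this order of the extremes held under all 7 scalings and background settings. Within the shared scan the range was 2.07-fold. The cosine fit gave an amplitude of 1.06 ± 0.90 (SE) with the peak at ZT2.33 and an unadjusted limma p of 0.528. Without the ZT4 array the amplitude was 2.17 (unadjusted limma p 0.122), and without ZT0 it was 0.69 with the peak at ZT7.94.

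Probe A_55_P2122555 had levels of -3.21 (ZT0), -3.31 (ZT4), -2.58 (ZT8), -3.01 (ZT12), -3.05 (ZT16) and -3.05 (ZT20). The ZT0 value that led on the other probe was absent here, and all 6 arrays lay within 1.66-fold. The fitted amplitude was 0.40 ± 0.69 (SE), with an unadjusted limma p of 0.851; without the ZT12 array it was 0.61. The difference between both Csnk1e probes ranged over 2.22 log2 units with the ZT0 array and 0.60 without it.

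Gsk3b, which is also the kinase that insulin signalling restrains, had probes A_55_P1981415, A_66_P104190 and A_51_P514412, all named after NM_019827. Probe A_55_P1981415 had levels of 1.25 (ZT0), 0.66 (ZT4), 0.72 (ZT8), 0.05 (ZT12), 0.51 (ZT16) and 0.51 (ZT20). Probe A_66_P104190 had levels of 0.43, 0.03, 0.07, -0.37, 1.40 and 1.12 at the same times. Both were lowest at ZT12 under all 7 scalings and background settings, but the first was highest at ZT0 (2.30-fold above ZT12) and the second at ZT16 (3.40-fold above ZT12). Their fitted amplitudes were 0.81 ± 0.70 (SE) at ZT0.98 and 1.46 ± 0.76 at ZT19.1, with unadjusted limma p values of 0.548 and 0.228; the first was 0.50 without the ZT0 array.

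Probe A_51_P514412 was dim, with levels of -6.13 (ZT0), -7.13 (ZT4), -4.56 (ZT8), -4.92 (ZT12), -6.55 (ZT16) and -5.73 (ZT20). It was well above background at ZT0, ZT8 and ZT12 only. ZT8 was 2.99-fold above ZT0 and at least 1.88-fold above ZT20, and its processed signal there was 88.8 ± 11.5 (Feature Extraction error). Its cosine had an amplitude of 1.43 ± 1.02 (SE) at ZT11.1, with an unadjusted limma p of 0.419. Its highest array was ZT12 in 3 of the other 6 settings and ZT4 with normexp correction, so its order of the arrays depends on the scaling and on how background was removed. The difference from A_66_P104190 ranged over 3.40 log2 units, 2.04 with normexp correction and 2.03 with dim spots at their bound.

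Btrc, the adaptor that brings phosphorylated PER proteins to the ligase, was read by probes A_66_P102607 and A_55_P2004026, both named after NM_001037758. Probe A_66_P102607 had levels of 1.41 (ZT0), -1.73 (ZT4), -0.06 (ZT8), -1.89 (ZT12), 0.77 (ZT16) and 0.81 (ZT20). It was low at ZT4 and ZT12 and high at ZT0, ZT16 and ZT20, with ZT8 between. ZT0 was 9.87-fold above ZT12, and within the shared scan ZT20 was 6.52-fold and ZT8 3.56-fold above ZT12. The cosine fit gave an amplitude of 2.56 ± 1.16 (SE) with the peak at ZT20.7, the largest of the 11, and the unadjusted limma p was 0.157, adjusted 0.766. Without the ZT8 array the amplitude was 4.29, the unadjusted limma p 0.0231 and the adjusted 0.255. This was not particular to Btrc. Leaving out ZT8 raised the count of all 28795 probes with an unadjusted limma p under 0.05 from 1138 to 4794.

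Probe A_55_P2004026 had levels of -3.74 (ZT0), -3.11 (ZT4), -3.36 (ZT8), -4.21 (ZT12), -2.73 (ZT16) and -2.73 (ZT20). Like the brighter probe it was lowest at ZT12, and both ZT16 and ZT20 were 2.80-fold above ZT12. It was not low at ZT4. Both Btrc probes were lowest at ZT12 under all 7 scalings and background settings. The fitted amplitude was 0.71 ± 0.83 (SE) at ZT20.3, 0.41 h from the peak of the other probe, with an unadjusted limma p of 0.706; it was 1.37 without ZT0, 1.12 without ZT8 and 0.41 without ZT20. The difference between the probes still ranged over 3.77 log2 units, between ZT0 and ZT4, 2.16 without the ZT0 array and 1.22 within the shared scan.

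Fbxl21, the CRY ligase gene, was read by probes A_51_P456838 and A_52_P41239, both named after NM_178674. Probe A_51_P456838 had levels of -2.59 (ZT0), -4.66 (ZT4), -2.91 (ZT8), -4.35 (ZT12), -2.24 (ZT16) and -2.52 (ZT20). It was low at ZT4 and ZT12, the same arrays as the brighter Btrc probe, and ZT16 was 5.37-fold above ZT4 and 4.32-fold above ZT12. Its processed signal at ZT4 was 20.0 ± 3.8 (Feature Extraction error), where the dimmest spot well above background had 16.1. With normexp correction its lowest array was ZT12 and its range 2.90-fold. Its cosine had an amplitude of 1.70 ± 1.02 (SE) at ZT19.1 with an unadjusted limma p of 0.307. The amplitude was 0.92 with normexp correction. Without the ZT8 array the amplitude was 3.19 with an unadjusted limma p of 0.0394 (adjusted 0.287). As for Btrc, that setting had 4794 of all 28795 probes at an unadjusted limma p under 0.05, against 1138 with every array.

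Probe A_52_P41239 had levels of -5.86 (ZT0), -6.18 (ZT4), -4.68 (ZT8), -5.69 (ZT12), -4.63 (ZT16) and -4.52 (ZT20). It was not well above background at ZT4 and ZT12. ZT20 was 2.53-fold above ZT0 and at least 2.17-fold above ZT12. The cosine fit gave an amplitude of 1.15 ± 0.87 (SE) at ZT16.0, with an unadjusted limma p of 0.461; it was 0.68 without ZT4, 1.99 without ZT8 and 1.83 without ZT12. Its lowest array was ZT4 here and ZT0 in 5 of the other 6 settings. The difference between the Fbxl21 probes ranged over 1.92 log2 units, 1.04 without the ZT0 array and 2.96 with dim spots at their bound.

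**Figure D2:**
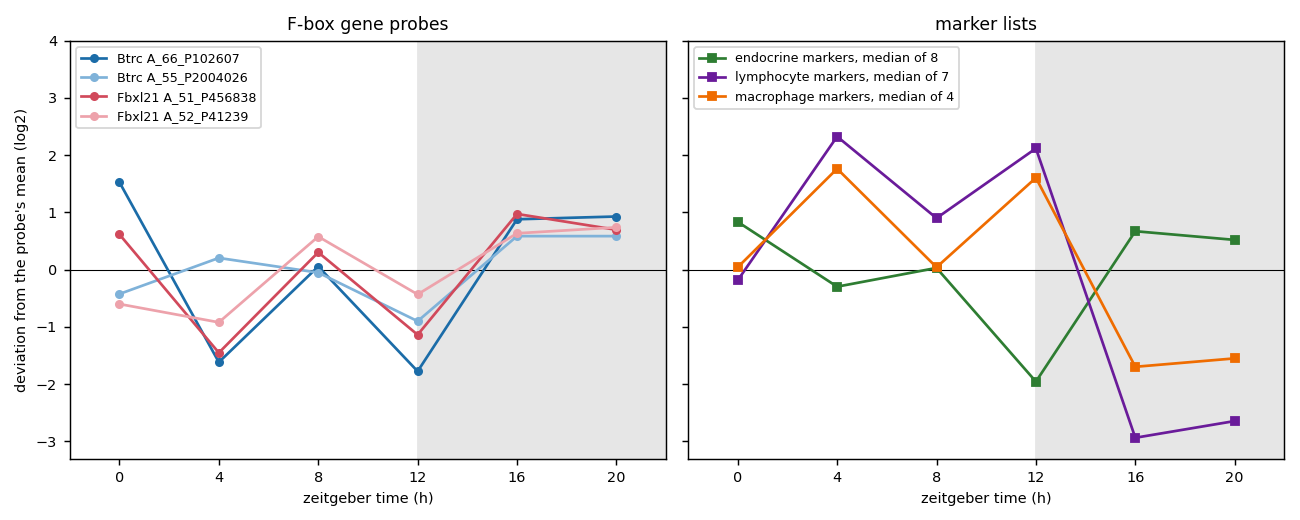
Deviation of each Btrc and Fbxl21 probe from its own mean over the 6 arrays (left) and the median deviation of the endocrine, lymphocyte and macrophage marker lists (right), in log2 units against zeitgeber time in h, 1 array per point with the dark phase shaded. The brighter Btrc and Fbxl21 probes and the endocrine median fall at ZT12, where the lymphocyte median is 2.12.

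Marker transcripts of several cell types also differed between the arrays. The endocrine markers had median deviations from each gene's mean of 0.84 (ZT0), -0.30 (ZT4), 0.03 (ZT8), -1.96 (ZT12), 0.67 (ZT16) and 0.52 (ZT20), and their summed signal ran from 502 times the 75th percentile at ZT12 to 1483 at ZT0. With quantile normalization the medians were 0.18, -1.1, 0.73, -2.09, 1.09 and 0.90 at those times. The ZT12 value was lowest in both, whereas those at ZT0, ZT4 and ZT8 shifted with the scaling. Gcg, Sst, Ppy, Chga and Pcsk2 carried the low ZT12 median (Sst 1.72, against 3.58 to 6.77 elsewhere), whereas Ins1 and Ins2, with 6.99 and 7.45 at ZT12, lay close to most of their other values and were highest at ZT4 (8.29 and 8.74). The acinar and duct lists also had low medians at ZT12, -1.20 and -2.11. The 7 lymphocyte markers had median deviations of 2.33 (ZT4), 2.12 (ZT12) and -2.94 (ZT16), with a summed signal of 13.9 at ZT20 to 246 at ZT4, and the 4 macrophage markers measured had 1.76, 1.60 and -1.70 at those times, with a summed signal of 13.4 to 226. Not all members followed their list: at ZT4 Ptprc of the lymphocyte list had a level of -1.84 and Lyz2 of the macrophage list -3.28, both below their values at ZT0, ZT8 and ZT12. No endocrine, lymphocyte or macrophage marker measured was below background on any array. The part of these transcripts' source cells in the low values of Btrc, Fbxl21 and the Gsk3b probes A_55_P1981415 and A_66_P104190 at ZT12 was not tested. Nor was it tested for the low ZT4 values of the brighter Btrc and Fbxl21 probes.

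Over the 11 probes, 9 had their lowest array at ZT4 or ZT12, where 44.1% of all probes tested had theirs. Probes of 1 gene share a target, so these are not 9 independent cases. At the probe of highest mean it was 3 of 5 genes, against 43.5% of all genes. The grouping of ZT4 with ZT12 was not planned. The dimmer Csnk1d, Gsk3b and Fbxl21 probes were lowest at ZT4, where they were not well above background. Over the 11 probes the count was 5 with normexp correction (32% of all probes) and 6 with dim spots at their bound (40.9%). It was 7 with median centring (32.4%), and 8 with quantile normalization (39.4%) and with the authors' values (40.5%). With the 75th percentile taken over probes well above background on every array it was 9 (52.4%). A range of at least 2-fold was seen for 9 of 11 probes, against 90.5% of all probes tested, for 9 with dim spots at their bound, against 88.7%, and within the shared scan for 8 of 11, against 59.6%. The exceptions over all 6 arrays were the brighter Csnk1d probe and the dimmer Csnk1e probe. The median range was 1.77 log2 units over the 11 probes and 2.11 over all.

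**Figure D3:**
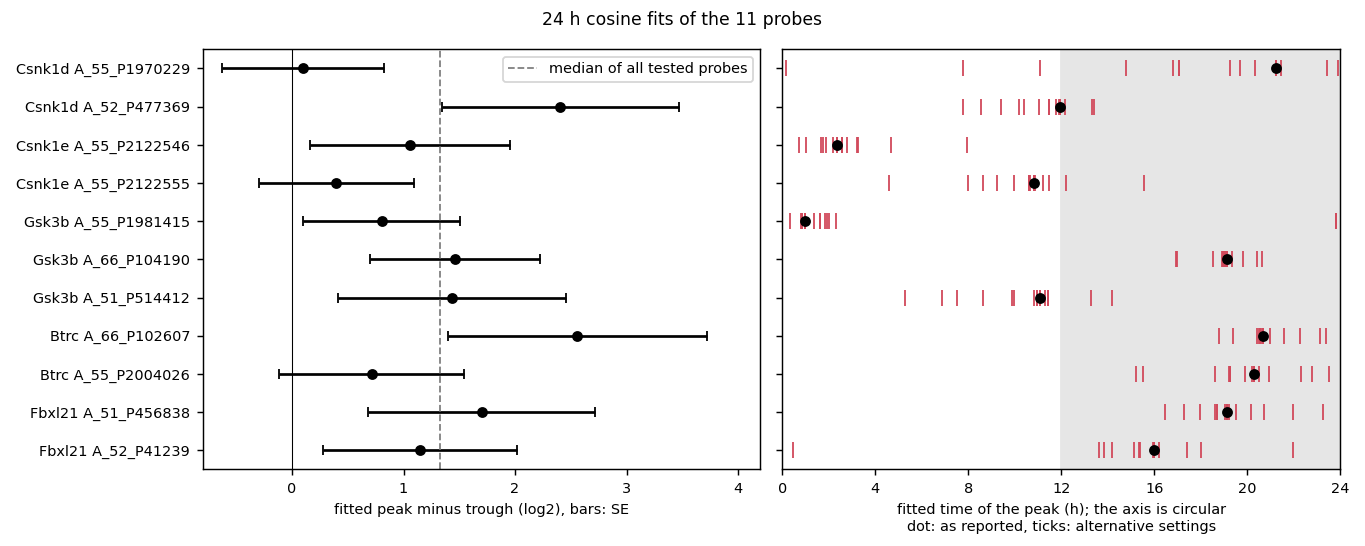
Fitted amplitude of each probe in log2 units with its SE as bars (left; dashed line, median of all probes tested) and fitted time of the peak in h (right, a circular axis; dots, as reported; ticks, alternative settings; dark phase shaded). The amplitudes run from 0.10 to 2.56. The ticks of the brighter Csnk1d probe lie mostly in the dark hours and run from 7.77 h through 24 h to 0.14 h.

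Fitted peak times of probes of 1 gene were compared next. They lay 9.28 h apart for Csnk1d, 8.48 h for Csnk1e, 0.41 h for Btrc and 3.14 h for Fbxl21, and for Gsk3b 5.86 h, 8.05 h and 10.1 h for its 3 pairs. Of the 11 probes 5 had their fitted peak in the light hours, against 45.2% of all. Of the 7 pairs 4 were over 6 h apart, against 30.3% of the 5232 pairs of tested probes that share a gene. The 3 Gsk3b pairs share their probes, so the 7 are not independent cases. As no probe passed the test, these times are a description of the fits. Under 18 other settings at most, periods of 20 h and 28 h and other tests aside, the peak moved by over 6 h for the brighter Csnk1d probe in 3 settings and for A_55_P2122555 of Csnk1e and A_52_P41239 of Fbxl21 in 1 each.

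**Figure D4:**
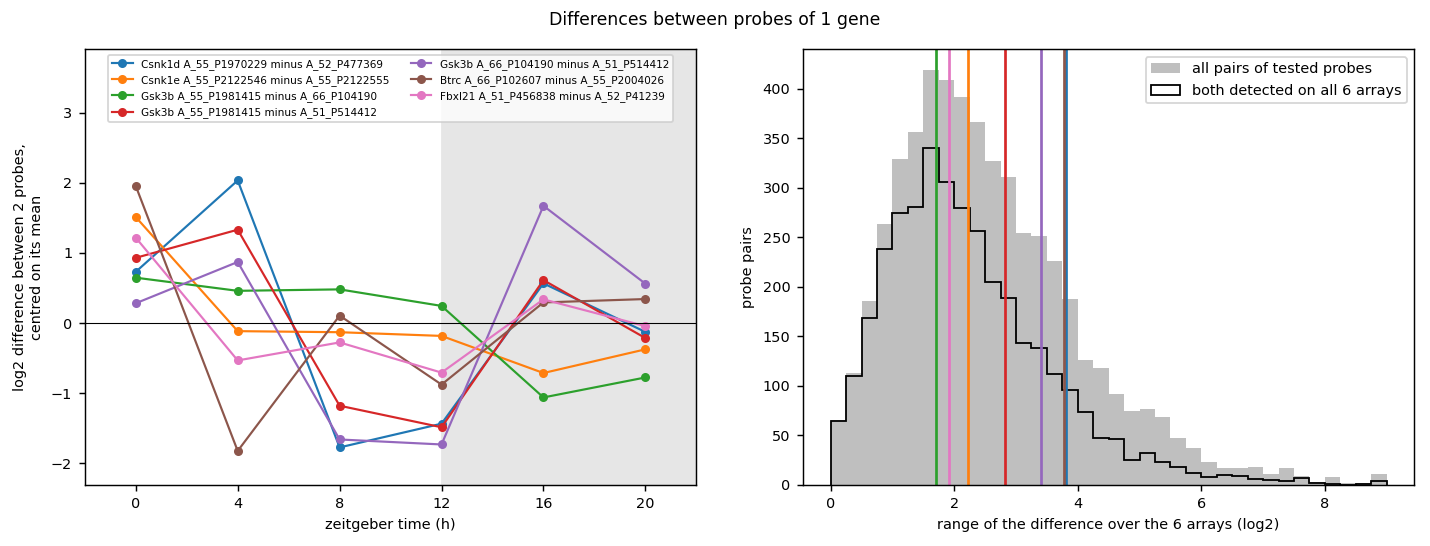
Left, log2 difference between 2 probes of 1 gene on the same array, centred on its mean, against zeitgeber time in h, for the 7 pairs; right, number of probe pairs of 1 gene by the range of that difference over the 6 arrays (grey, all 5232 pairs; outline, pairs with both probes well above background on all arrays), with the 7 pairs as lines in the same colours. The pairs that hold the dimmer Csnk1d or Gsk3b probe dip at ZT8 and ZT12, and the 7 lines lie between 1.71 and 3.80; pairs over 9 are drawn in the last bar.

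The disagreement of the Csnk1d probes was set beside that of all genes. All 7 pairs differed by at least 2-fold in their range, against 88% of all 5232 pairs. The median range was 2.82 log2 units for the 7 and 2.30 for all, but 4 of the 7 hold a probe not well above background on every array. For the 3 pairs with both probes above it throughout, the median was 2.22, against 1.99 for all such pairs. The Csnk1d pair, with 3.80, lay at percentile 82.6 of all pairs. It rests on the ZT4 spot of a probe not well above background there, and among pairs with such a probe the median was 3.06 and the 75th percentile 4.08, above the Csnk1d value. The Btrc pair, with 3.77, lay at percentile 82.1 of all pairs and 88.3 of pairs with both probes well above background on all 6 arrays. The Gsk3b pairs lay at percentiles 31.7 to 75.5, Csnk1e at 47.4 and Fbxl21 at 38.3. The pair was singled out with its disagreement known, so the percentile is a description. Spots of the same probe on 1 array, which 399 probes have in 10 copies, differed by a median SD of 0.28 to 0.44 log2 units at levels under -4, where most values of the dimmer Csnk1d, Gsk3b and Fbxl21 probes lie, and of 0.06 to 0.09 between -4 and -1.

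The start regions of the genes were searched for letters known from clock-regulated promoters, in the RefSeq table of windows with 250 bases before and 50 after a start (build GRCm38.p6), where 3 of the 5 genes had an entry: Csnk1e (4 starts), Fbxl21 and Gsk3b. The E-box CACGTG, which CLOCK and BMAL1 bind, was in 0 of these 6 windows and in 7.15% of all 32851, and among 7 substrate genes with an entry in those of Per1 and Cry1. The D-box TTATGTAA (0.938% of all windows) and the nuclear receptor half-site AGGTCA (16.3%) were also in none of the 6. The GC box GGGCGG (35.7%) was in those of Fbxl21 and Csnk1e, and CCAAT (37.4%) in that of Gsk3b. Both strands were read, GGGCGG and CCAAT did not overlap each other in the stretches printed, and a match is a match of letters only. The stretches are shown to set the starts of Fbxl21 and Gsk3b, which lack the E-box, beside the E-box of Per1. Capitals mark 5 matches of GGGCGG in Fbxl21 (chr13:56522222-56522387, plus strand), 3 of CCAAT or its reverse complement ATTGG in Gsk3b (chr16:38088751-38089000, plus strand) and CACGTG in Per1 (chr11:69098771-69098800, plus strand).
Fbxl21: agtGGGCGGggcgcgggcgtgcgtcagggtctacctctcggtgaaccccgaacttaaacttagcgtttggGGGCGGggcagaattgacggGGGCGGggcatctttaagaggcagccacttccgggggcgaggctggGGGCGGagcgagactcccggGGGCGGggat
Gsk3b: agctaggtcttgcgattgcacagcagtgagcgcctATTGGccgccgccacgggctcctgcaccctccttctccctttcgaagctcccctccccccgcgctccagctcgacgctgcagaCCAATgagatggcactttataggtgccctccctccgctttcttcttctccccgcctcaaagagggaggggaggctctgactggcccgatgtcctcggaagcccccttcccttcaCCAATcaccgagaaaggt
Per1: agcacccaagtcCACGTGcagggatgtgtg

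Relatives of the 5 genes were read at their probe of highest mean. Csnk1a1, casein kinase 1 alpha, had levels of 3.03 at ZT4 to 4.28 at ZT0, and Fbxw11, the second beta-TrCP, of 3.01 at ZT4 to 4.08 at ZT0. At ZT12 Fbxw11 had 3.15, below its values at ZT0, ZT16 and ZT20 and above those at ZT4 and ZT8. Gsk3a ran from 3.71 at ZT8 to 5.21 at ZT4. Their fitted amplitudes were 0.72 ± 0.74 (SE), 0.84 ± 0.71 and 0.60 ± 0.82 in that order, with unadjusted limma p values of 0.640, 0.527 and 0.770. A further Csnk1a1 probe was also lowest at ZT4 but highest at ZT8, with its fitted peak at ZT10.9 against ZT20.4. A further Fbxw11 probe was also highest at ZT0 but lowest at ZT8.

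Other genes that act on clock proteins also gave 0 calls, and these relatives are counted again among them. Of 17 further kinase genes, all tested, 0 passed over all probes and 0 had an unadjusted limma p under 0.05, with 6 peaks fitted to the light hours (45.5% of all genes had theirs there), 11 to the dark hours and a median amplitude of 0.69 log2 units, beside 1.33 for all 24127 genes, where an accession with no symbol counts as a gene of its own. The smallest p values were those of Csnk2a2, a catalytic subunit of casein kinase 2 (amplitude 1.54 ± 0.69 (SE) at ZT14.1), Dyrk1a (1.53 ± 0.79 at ZT10.4) and Prkaa2, an AMPK subunit (2.09 ± 1.30 at ZT22.4). Of 6 phosphatase genes 0 passed and 0 had an unadjusted limma p under 0.05, with 3 peaks in each phase; they were led by Ppp5c, a phosphatase that acts on casein kinase 1 epsilon (1.57 ± 0.81 at ZT0.95), Ppp1cb (0.98 ± 0.71) and Ppp1ca (1.45 ± 1.07).

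Of 15 other ubiquitin ligase and deubiquitinase genes 0 passed and 0 had an unadjusted limma p under 0.05, with 5 peaks fitted to the light hours, 10 to the dark hours and a median amplitude of 0.54. Ube3a led with 1.89 ± 0.81 (SE) at ZT16.9, followed by Cul1, the scaffold of the SCF ligases that Btrc and Fbxl21 join (3.21 ± 1.62 at ZT15.8), and Siah2 (1.39 ± 0.74 at ZT20.9). Cul1 was at -5.00 at ZT4, where it was not well above background, and between -0.73 and 0.21 on the other 5 arrays. Among the 8 substrate genes (Per1, Per2, Per3, Cry1, Cry2, Arntl, Clock and Nr1d1) 0 passed, and 1, Nr1d1, had an unadjusted limma p under 0.05 (0.00975), where 4% of all genes had one. The Nr1d1 probe was well above background on 4 of 6 arrays, with -6.14 at ZT16 and -5.81 at ZT20. Arntl had 0.0661 and Cry1 0.0694. The median amplitude of the 8 was 2.16 and their median range 3.06 log2 units, against 1.06 and 2.06 for the 5 kinase and F-box genes at their probe of highest mean, and 1.33 and 2.10 for all genes. The Nr1d1, Per2 and Per3 probes were well above background on 4, 5 and 3 arrays, so their ranges of 4.43, 5.02 and 3.53 run to dim spots, whereas the probes of the 5 kinase and F-box genes were above it on all 6.

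Profiles were then matched over the 6 arrays by the root mean square difference of values centred on their mean, among 16803 other genes with a symbol. Nearest to the brighter Csnk1d probe were Phf20 (0.06 log2 units), Mtmr3 (0.06) and Smap1 (0.07), and 687 genes lay within 0.25 of it. Nearest to the dimmer Csnk1d probe were Dhx38 (0.25), Dram1 (0.29) and Mak16 (0.33), and 0 genes lay within 0.25; its levels at ZT4 and ZT16, not well above background, enter these distances. Csnk1e was nearest to Mex3d (0.11), Syt15 (0.12) and Gm9573 (0.13), and Gsk3b to Cldnd1 (0.06), Ssxb9 (0.08) and Tle1 (0.09). Btrc was nearest to Spag6l (0.14), Dazl (0.15) and Ndrg4 (0.16), with 19 genes within 0.25. Fbxl21 was nearest to Itgav (0.11), Tvp23b (0.13) and Maml3 (0.14), with 70. Among the members themselves, the closest probes were A_66_P104190 of Gsk3b and A_55_P2004026 of Btrc, 0.37 apart. Next came the dimmer Csnk1d probe and A_51_P514412 of Gsk3b (0.40), which both have spots not well above background. A_55_P1981415 of Gsk3b lay 0.46 and 0.48 from the Csnk1e probes, and the brighter Btrc and Fbxl21 probes were 0.48 apart. With so many genes and 6 arrays, close matches arise readily, and nothing follows about function.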

How the data were processed

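Total RNA of pooled islets was labelled with Cy3 and hybridised to 1-colour Agilent arrays, 1 per time point. Per the file headers, Feature Extraction 11.0.1.1 made the deposited processed signal, a linear intensity that was background-subtracted and detrended with no normalization between arrays; the deposited spot error and the median spot and background signals, used for normexp, are intensities too, and the deposited flags are 0 or 1. The authors' value table of 30170 probes holds log2 values whose columns share a distribution (medians 8.62 to 8.63, maximum 18.4), with the steps not given in the sources used here and genes not centred; its columns correlated across probes with their own arrays at Pearson's r of 0.9987 to 0.9998.

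Control spots were dropped and spots of a probe not marked as outliers averaged. Levels are log2 intensity minus the log2 of the array's 75th percentile over probes. Accessions without versions were matched to symbols in RefSeq's table for GRCm38.p6, used for names: 27234 of 39429 probes (69.1%) matched. Probes well above background on at least 3 arrays and not an outlier on any were fitted, which left 28795; the outlier condition removed 1414. Cosine and sine terms of 24 h were fitted per probe with limma 3.58.1 in R 4.3.3, and p-values were adjusted over all probes with a threshold of 0.05. Amplitude errors are standard errors by the delta method. The fit was tested on simulated data. Their scatter was smaller than is typical of these arrays, so the simulation does not show what could be called here. The exact permutation test uses all 720 orders of the arrays, of which 60 are distinct on the circle, and cannot give a p below 0.0167.

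Named were every probe of the 5 genes, their relatives (1 is not reported here), the 3 smallest p values of each further list and the 3 nearest profiles. Members and lists were chosen with earlier results of these data known. Alternatives covered scaling, background correction, filters, scan, single arrays, period, test and the choice of probe. Probe positions and probe sequences were not used here.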

Additional observations from a re-analysis of the deposited data

How the results depend on the processing

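Every value was recomputed under each alternative that applied to it, 437 times in all. Of these repeats 412 stayed on the same side of the threshold or within 1.5 times, 25 moved further and 0 reversed. A probe's cosine was judged only by whether it passed. As 0 passed, each such repeat counted as unmoved, whatever its amplitude. That of the brighter Csnk1d probe was 0.10 as reported and 1.11 with scan as a block. The 412 therefore do not measure how stable the amplitudes were. No alternative gave a call among the 11 probes or among all probes. For the exact permutation test this carries no weight, given the floor of its p. Counts of all probes with an unadjusted p under 0.05 (1138 by limma) ran from 416 to 4794 without 1 array (without ZT20 and ZT8; 2707 without ZT12 and 523 without ZT16), and were 545 with scan as a block, 316 and 1847 with periods of 20 h and 28 h, 720 by exact permutation and 3296 without ZT4 and ZT12 together. Among the 11 probes that count was 0 to 2 without 1 array, 2 without ZT8 (Btrc A_66_P102607 and Fbxl21 A_51_P456838), and 0 in every other setting. The range of the Csnk1d probe difference was 2.50 to 3.80 without 1 array and 1.93 with normexp correction. It was 2.85 with quantile normalization, 2.86 with the authors' values, 2.34 on the shared scan alone, 2.50 with dim spots at their bound and 2.50 without ZT4 and ZT12. Other causes were not tested. The last 2 of these settings, and the pairs of detected probes as a background, were chosen after seeing the data. Median centring of each array moved the median deviation of all probes from 0.04 to 0.30 at ZT12 and from -0.06 to 0.17 at ZT4. The scan block left 1 residual degree of freedom and drew on 4 arrays. No paired analysis was possible because each time point has 1 array. Spots near background limit the dimmer Csnk1d, Gsk3b and Fbxl21 probes, of which 3 had at least 1 array not well above it. The ZT4 spot of the brighter Fbxl21 probe was also near it.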
